A study of Rattus norvegicus with 6 samples.

Results

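The genes described here encode the proteins of the cytosolic ribosome, followed in rat insulinoma cells that were made to produce a misfolding mutant of proinsulin. They were taken from the gene names paired with the array probesets, as symbols that begin with Rpl or Rps and a digit, or that read Rplp0, Rplp1, Rplp2 or Rpsa. Symbols of the Rps6 kinases, pseudogenes and like paralogues were left out. The rule found 43 genes of 12603 with a probeset of their own, 29 of the large subunit and 14 of the small subunit, read by 48 probesets. Rplp1 and Rplp2 had no probeset that carried their symbol alone. The 43 genes are only a part of the cytosolic ribosomal proteins, and 33 further probesets list such a gene beside other symbols. The paralogues Rpl26l1, Rpl3l, Rpl7l1 and Rps27l and the pseudogene Rpl37-ps2 were kept apart.

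The arrays came from 1 clone of INS-1, an insulin-secreting tumour line of the rat in which β-cell biology is often studied. It carries a GFP fusion of insulin 2 C96Y, the Akita mutant, under a doxycycline (Dox) inducible promoter. The 3 groups were cells given Dox together with 5 μM of 4μ8c, which blocks the endoribonuclease of IRE1, cells given Dox alone, and untreated cells. Each of 2 experiments gave 1 array per group, so there were 6 arrays. Treatment lasted 48 h, with Dox at 4 μg/ml in the labels and at a lower concentration in the study's methods, and all groups carried the transgene, so an action of Dox itself and that of mutant proinsulin cannot be told apart. Cells given the inhibitor without Dox were not analysed here. The deposited log2 values were centred per probeset, so levels and the line's marker genes could not be read. Only differences between arrays of the same experiment carry meaning. In experiment 2 the centre was not the median of the arrays used here, and the sources used here do not state it. In whole cultures, less RNA per cell and fewer cells of a kind cannot be told apart.

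Ribosomal proteins are assembled with ribosomal RNA in the nucleolus, and their mRNAs are among the most abundant of growing cells. In vertebrates most of these mRNAs begin with a 5′ terminal oligopyrimidine (TOP) tract, a C at the cap followed by a run of C and T, through which their translation follows nutrient and mTORC1 signals. The unfolded protein response (UPR) lowers protein synthesis through the kinase PERK, which phosphorylates eIF2α, while IRE1 splices the mRNA of the transcription factor XBP1. An mRNA array reads transcript amounts and not translation.

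Start sites are shown for 10 of the genes, because the TOP tract is the feature their promoters are known for and because these genes span the changes described below. Each line gives the 30 bases from 10 before the annotated start to 20 from it on, so that the start is base 11, read 5′ to 3′ on the gene's strand from RefSeq sequence of assembly GRCr8. Capitals mark the longest run of C and T in the window, where one of at least 5 bases is present, and the windows hold promoter and first-exon sequence only. In Rplp0, Rpl19, Rps15, Rpl35 and Rpl28 the annotated start is a C followed by 4 or more C or T. In Rpl12, Rps13, Rps24, Rps6 and Rpsa it is not. 
Rplp0 (chr12:46718371-46718400, minus strand): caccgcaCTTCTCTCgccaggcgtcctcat
Rpl19 (chr10:83519054-83519083, plus strand): ccagcaagCTCTTTCCTTTCgctgctgcgt
Rps15 (chr7:10068096-10068125, minus strand): acaccgCTTCCTTTTCCCagcagccgccaa
Rpl35 (chr3:43165902-43165931, minus strand): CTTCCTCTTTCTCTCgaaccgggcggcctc
Rpl28 (chr1:78083513-78083542, minus strand): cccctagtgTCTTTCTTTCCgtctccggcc
Rpl12 (chr3:36661930-36661959, plus strand): aacatccgTCTTTTCggctttcggttcgga
Rps13 (chr1:180009641-180009670, minus strand): ttcctacctcgTTCTCTCTTTgcttccaga
Rps24 (chr16:96507-96536, plus strand): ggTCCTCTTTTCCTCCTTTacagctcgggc
Rps6 (chr5:106420521-106420550, minus strand): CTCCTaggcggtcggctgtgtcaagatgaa
Rpsa (chr8:128728869-128728898, plus strand): ccgcgctaccctggaacgggtccgtacggc

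A window of 300 bases around the start, 250 before and 50 after, was held for 38 of the 43 genes. A C at the start with at least 4 C or T behind it was found in 12 of them (31.6%), against 2.44% of 18999 protein-coding genes. A run of 8 or more C or T within 20 bases of the start was found in 29 (76.3%), against 20.3% of all. In Rpl12 and Rps24 a run of C and T spans an annotated start that is itself a T, and where transcription begins in these cells was not measured. On either strand, the GC box GGGCGG was in 65.8% of the members' windows and 43.1% of all, and the ETS letters CCGGAAG in 21.1% and 11.2%. The YY1 letters AAGATGGC were in 10.5% and 3.92%, the E-box CACGTG in 7.89% and 7.26%, and TATAAA in 13.2% and 13.1%. In Rps3 and Rpl13a a match to the YY1 letters lies after the annotated start, so such a match need not be promoter sequence. The letters TTGCATCA, part of many ATF4 target sites, and the ER stress element were in none of the 38 windows, and in 0.726% and 0.0947% of all windows.

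Targets of the UPR were read first as a check of the labels. Hspa5, Trib3, Dnajb9, Sdf2l1, Herpud1 and Bhlha15 rose with Dox in limma's moderated test, by log2 0.70 (Hspa5) to 2.88 (Trib3). Between Dox+4μ8c and Dox, Bhlha15 (-1.44), Dnajb9 (-1.05) and Sdf2l1 (-0.48) were called lower, with limma adjusted p of 0.0129, 0.0129 and 0.0302. Herpud1 (-0.30), Trib3 (-0.085) and Hspa5 (-0.038) were not called in that comparison. One property of the values bears on every count below. In experiment 1, 6487 of 25476 probesets (25.5%) held the same value to the last digit on all 3 arrays, against 1 probeset in experiment 2. Among the 48 ribosomal protein probesets there were 5 (10.4%) in experiment 1. The sources used here do not say how such ties arose, so a difference of 0 in experiment 1 was counted as a tie and not as a direction. Within experiment 2 the spread over all probesets was an SD of 0.087 on the Dox+4μ8c array, 0.18 on the Dox array and 0.11 on the untreated array.

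With Dox, the ribosomal protein mRNAs stood slightly and rather evenly above those of untreated cells, and none passed the test. The median change over the 43 genes was log2 0.061, or 4.34%, with single genes between -0.021 and 0.18, whereas the median over all genes was 0.011. The SD over the members was 0.050, against 0.17 over all genes. No member was called higher or lower at an adjusted p under 0.05, where 4.42% of all genes were called higher and 2.01% lower. The smallest adjusted p of a member was 0.0809 (limma). At an unadjusted p under 0.05, 4 members were higher and 0 lower, beside 11.2% and 8.44% of all genes. An absolute change of 0.1 or more was read for 11 members (35.1% of all genes with Dox), for 6 with Dox+4μ8c (28.7%) and for 1 between Dox+4μ8c and Dox (24.9%).

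Most members were higher with Dox in each experiment. In experiment 1, 34 members were higher with Dox, 8 were tied and 1, Rpl27, was lower, beside 34.9%, 25.2% and 39.9% of all genes. In experiment 2, 39 were higher and 4 (Rpl21, Rpl39, Rpl41 and Rps4y2) lower, beside 58.0% and 41.9% of all genes. Both experiments together had 31 members higher in each and 0 lower in each, beside 26.6% and 24.8% of all genes. The members' median was 0.032 in experiment 1 and 0.079 in experiment 2, where the median of all genes was 0 and 0.030. These counts describe the list and were not tested as a set.

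**Figure D1:**
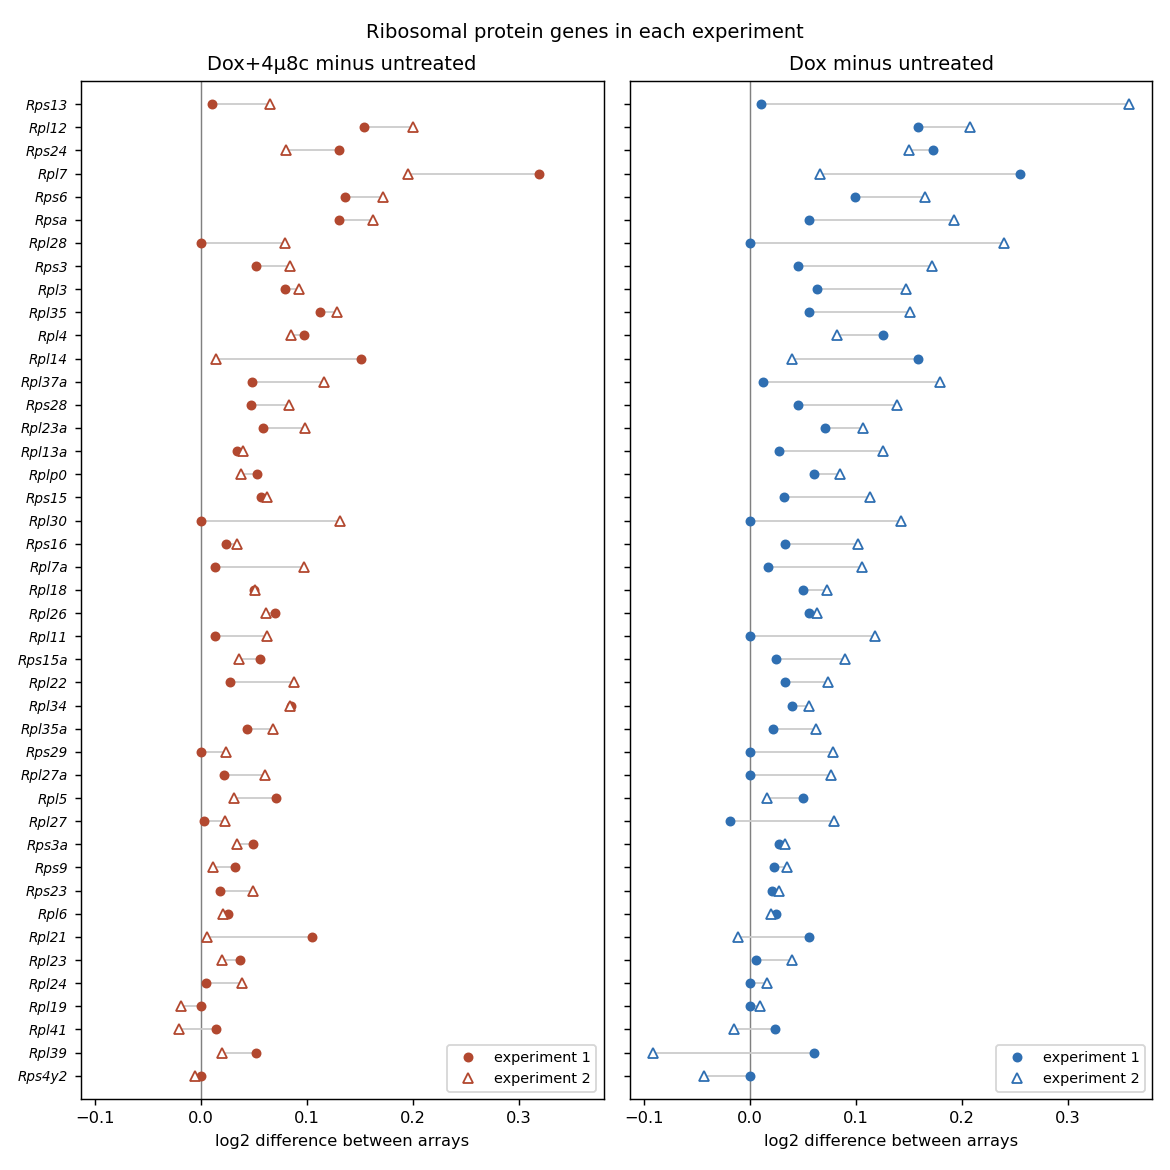
Log2 difference of each of the 43 ribosomal protein genes from untreated cells (x axis) in experiment 1 (filled circles) and experiment 2 (open triangles), for Dox+4μ8c on the left and Dox on the right, with genes ordered by their mean change with Dox. Most points lie right of 0 in both panels, 31 genes with Dox and 37 with Dox+4μ8c in both experiments, and Rps13 with Dox is the gene whose experiments lie farthest apart.

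Most members also stood above untreated cells with Dox+4μ8c. Against untreated cells the members' median change with Dox+4μ8c was log2 0.051, 0.048 in experiment 1 and 0.061 in experiment 2, with single genes between -0.009 and 0.26, and the median of all genes was -0.002. In both experiments 37 of 43 members were higher and 0 lower, beside 23.9% and 28.9% of all genes. In experiment 1 there were 38 higher, 5 tied and 0 lower, beside 34.4%, 27.3% and 38.3% of all genes, and in experiment 2 there were 40 higher and 3 lower, beside 48.4% and 51.4%. No member was called (1.17% of all genes were called higher and 1.13% lower), the smallest adjusted p being 0.0977 in limma, and 4 members were higher and 0 lower at an unadjusted p under 0.05, beside 6.27% and 9.15% of all genes. Both changes are measured against the same 2 untreated arrays, so a low value on one of those arrays enters both.

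Between Dox+4μ8c and Dox the median difference of the members was log2 -0.007, and that of all genes -0.014. The experiments leaned opposite ways: with the inhibitor 23 members were higher, 8 tied and 12 lower in experiment 1 (36.0%, 27.8% and 36.2% of all genes), and 14 higher and 29 lower in experiment 2 (38.8% and 61.1%). In both experiments 8 members were higher and 8 lower, beside 19.0% and 26.9% of all genes. None was called (0.175% of all genes were called higher and 1.61% lower) and none passed an unadjusted p of 0.05, where 2.79% of all genes were higher and 8.44% lower. The 95% confidence intervals of the 43 differences lay between -0.36 and 0.24, with a median width of 0.12 to either side. A difference of 1.5 fold in the deposited values thus lay outside the interval of every member. The same held against untreated cells, where the intervals reached at most 0.40 with Dox+4μ8c and 0.395 with Dox. Members tied in experiment 1 entered these fits with a difference of 0 there, so their intervals rest in part on unexplained ties. The adjusted test was less sensitive than these unadjusted intervals, and with 2 arrays a group even the 0.18 of Rpl12 with Dox was not called.

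**Figure D2:**
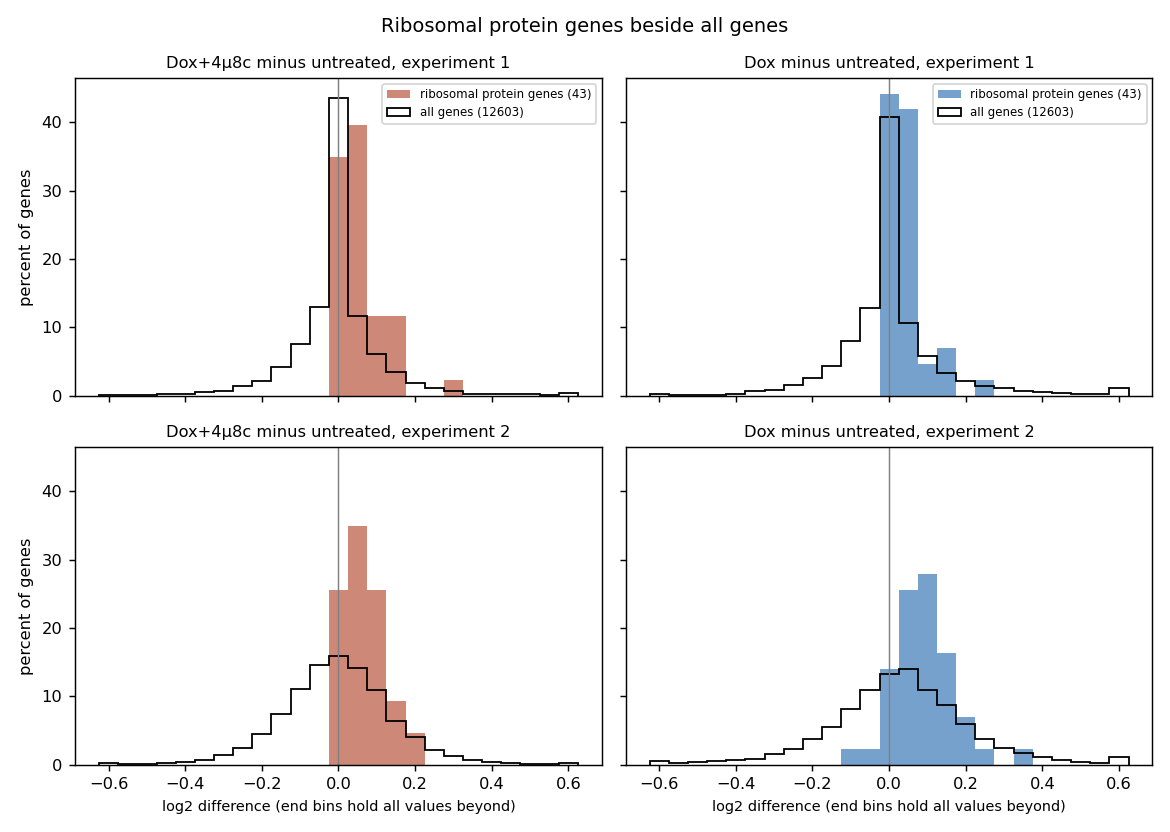
Percent of genes (y axis) by log2 difference from untreated cells (x axis, bins of 0.05 centred on 0) for the 43 ribosomal protein genes (filled) and all 12603 genes (line), with Dox+4μ8c on the left, Dox on the right, experiment 1 above and experiment 2 below. The ribosomal protein genes form a narrow group mostly at 0 and to its right, with 15 of 43 (Dox+4μ8c) and 19 of 43 (Dox) in the bin at 0 in experiment 1, where the tall line holds the tied genes.

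Of the P stalk, where elongation factors bind the large subunit, Rplp0 and Rpl12 were measured. Rpl12 encodes a protein at the base of the stalk, and it had the smallest p of all members with Dox. Its values were 0.000 (Dox+4μ8c), 0.005 (Dox) and -0.15 (untreated) in experiment 1, and 0.10, 0.11 and -0.10 in the same order in experiment 2. Both treated arrays of each experiment thus stood clear of the untreated one and within 0.007 of each other. The change was 0.177 ± 0.047 (SE, n = 2) with Dox+4μ8c and 0.183 ± 0.047 with Dox, with limma adjusted p of 0.132 and 0.0809. Rplp0, which carries the other stalk proteins and is a common reference gene in quantitative PCR, was higher by 0.046 with Dox+4μ8c and 0.072 with Dox, with adjusted p of 0.693 and 0.432.

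Rps13, a protein of the small subunit's platform, had the same mean change with Dox as Rpl12 but not the same pattern. In experiment 1 its values were 0.000 (Dox+4μ8c), 0.000 (Dox) and -0.010 (untreated), and in experiment 2 they were -0.044, 0.25 and -0.11. A single array, Dox in experiment 2, carried the difference. The change with Dox was 0.18 ± 0.087 (SE) with an adjusted p of 0.320, and that between Dox+4μ8c and Dox was -0.15 with an adjusted p of 0.601, which was the lowest of the members in that comparison. Without the Dox array of experiment 1, limma, taking the spread from the other arrays because 1 Dox array was left, called both, at 0.343 (adjusted p 0.0132) and -0.305 (adjusted p 0.0320), and without the Dox array of experiment 2 the second was 0.014. Rpl28 of the large subunit had the same shape, with 0.000 on all 3 arrays of experiment 1 and 0.039 (Dox+4μ8c), 0.20 (Dox) and -0.039 (untreated) in experiment 2. Rpl28 on all 3 arrays and Rps13 between its treated arrays were thus tied in experiment 1. How these ties arose is not known, so they do not show that the genes were unchanged there.

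Rpl7, an RNA-binding protein of the large subunit, had the largest change with Dox+4μ8c. Its values were 0.065 (Dox+4μ8c), 0.000 (Dox) and -0.255 (untreated) in experiment 1, and 0.082, -0.046 and -0.11 in experiment 2. The order of the 3 groups was the same in both experiments, with the untreated array lowest. The change was 0.26 ± 0.059 (SE, n = 2) with Dox+4μ8c, with a limma adjusted p of 0.0977, and 0.16 ± 0.059 with Dox, with an adjusted p of 0.204. Without the Dox array of either experiment, a fit in which the lone Dox array adds nothing to the spread, the first was called, at an adjusted p of 0.0305. Most of it came from 1 of the gene's 2 probesets, for which the changes were 0.41 with Dox+4μ8c and 0.245 with Dox, against 0.11 and 0.076 for the other.

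Rps24, a small subunit protein and one of the genes mutated in human Diamond-Blackfan anaemia, a failure of red cell production, also differed between its probesets. The first read 0.32 higher with Dox, with values of 0.000 (Dox+4μ8c), 0.11 (Dox) and -0.24 (untreated) in experiment 1 and 0.080, 0.22 and -0.080 in experiment 2. The second, which the array's design marks as shared by transcripts of 1 gene, read -0.002 with Dox and had no value above 0.022 on any array. Averaged, the gene was at 0.105 with Dox+4μ8c and 0.16 with Dox (SE 0.046), with limma adjusted p of 0.364 and 0.111. With probesets in place of genes as the rows of the fit, the first probeset was called with Dox (limma adjusted p 0.0373). It was the only one of the 48 called, and the share of all probesets called in that fit was not counted. Which transcripts each probeset reads could not be settled from the files.

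**Figure D3:**
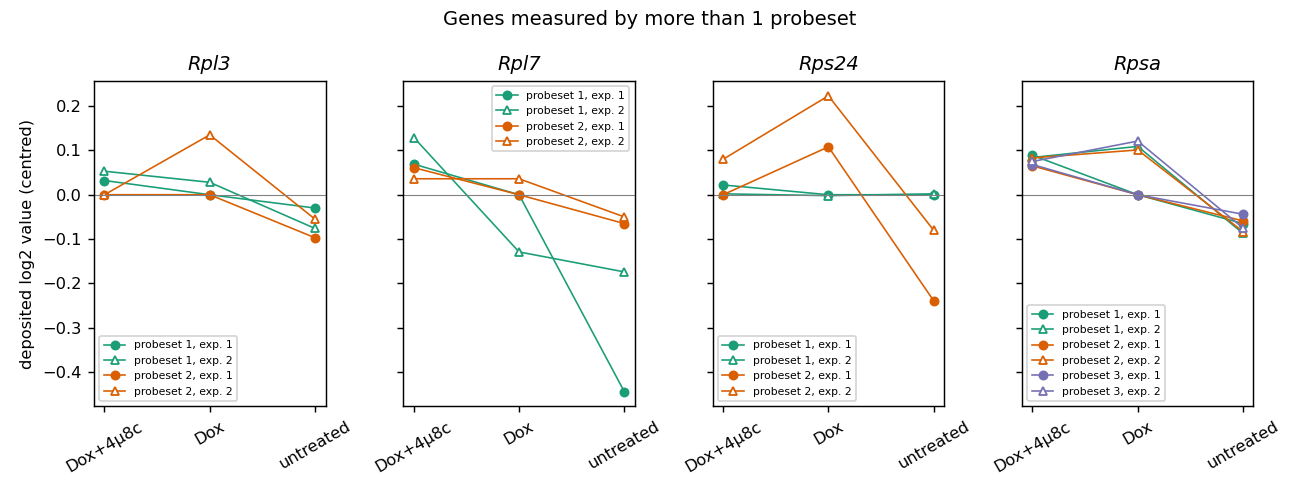
Deposited log2 values (y axis, centred per probeset) on the Dox+4μ8c, Dox and untreated arrays of experiment 1 (filled circles) and experiment 2 (open triangles) for the 4 genes with more than 1 probeset, with 1 colour per probeset. The 3 probesets of Rpsa follow each other closely, whereas 1 probeset each of Rpl7 and Rps24 carries most of the gene's change.

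The 3 probesets of Rpsa, the small subunit protein also known as the laminin receptor, gave nearly the same values. Averaged they were 0.074 (Dox+4μ8c), 0.000 (Dox) and -0.056 (untreated) in experiment 1, and 0.081, 0.11 and -0.082 in experiment 2. The untreated array was the lowest in both. The change was 0.15 with Dox+4μ8c and 0.12 with Dox (SE 0.054), with limma adjusted p of 0.262 and 0.274.

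Rps6, the small subunit protein phosphorylated by the S6 kinases downstream of mTORC1, read 0.037 (Dox+4μ8c), 0.000 (Dox) and -0.099 (untreated) in experiment 1, and 0.052, 0.045 and -0.12 in experiment 2. Untreated cells were again below both treated groups. It was higher by 0.15 and 0.13 with Dox+4μ8c and Dox (SE 0.047), with limma adjusted p of 0.181 and 0.188. Rps3, which lines the mRNA entry site and also has roles in DNA repair, was higher by 0.068 and 0.11, with adjusted p of 0.598 and 0.327.

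Rpl5 and Rpl11 join the 5S RNA in a particle that, outside the ribosome, can bind the p53 inhibitor Mdm2. Rpl5 was higher by 0.051 with Dox+4μ8c and 0.033 with Dox, and Rpl11 by 0.037 and 0.059, with limma adjusted p from 0.558 to 0.782. Of the proteins around the exit tunnel 6 were measured, with medians of 0.062 with Dox+4μ8c and 0.057 with Dox. Rpl35, at 0.12 and 0.10 (adjusted p 0.326 and 0.325), was the highest of them with Dox. Rpl22, an RNA-binding protein with the paralogue Rpl22l1, was at 0.058 and 0.054. The 10 measured Diamond-Blackfan anaemia genes had medians of 0.053 and 0.059, close to those of all 43.

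At the other end, Rpl19, an exit tunnel protein, was 0.000 on all 3 arrays of experiment 1, and -0.009 (Dox+4μ8c), 0.019 (Dox) and 0.009 (untreated) in experiment 2. Rps4y2, a paralogue of the small subunit protein Rps4, was likewise tied in experiment 1 and read 0.019, -0.019 and 0.024 in experiment 2. Rpl41, the smallest ribosomal protein, was at -0.003 with Dox+4μ8c and 0.005 with Dox, and Rpl24 at 0.022 and 0.008. Rpl39 had opposite signs in the experiments with Dox, 0.060 in experiment 1 and -0.091 in experiment 2. The interval of each of these excludes a change of 1.5 fold in the deposited values, and none shows that the gene was unchanged. Signal levels could not be read, so the intervals apply to the array values only. Unexplained ties in experiment 1 entered the fits of Rpl19, Rps4y2 and, with Dox, Rpl24 as differences of 0. Their intervals rest in part on those ties.

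By subunit, the medians with Dox+4μ8c were 0.055 for the large and 0.044 for the small subunit, and with Dox they were 0.060 and 0.070. With Dox+4μ8c, 25 of 29 large and 12 of 14 small subunit genes were higher in both experiments, and with Dox 19 and 12. The 12 genes with a TOP tract at the annotated start had medians of 0.056 with Dox+4μ8c and 0.063 with Dox, and the 26 without had 0.048 and 0.060. Rps13, Rpl12, Rps24, Rps6 and Rpsa, whose start sites are printed above, were with Rpl7 the 6 genes highest with Dox, and none of the 5 has the tract at its annotated start, as 26 of the 38 genes do not. Rpl28, the next highest, has it, as does Rpl19 near 0, and Rps4y2, Rpl41 and Rpl24 near 0 lack it.

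The 33 probesets that list a ribosomal protein gene beside other symbols entered none of the 43 genes' averages. Their medians were 0.050 with Dox+4μ8c and 0.061 with Dox, and -0.003 between Dox+4μ8c and Dox. In both experiments 26 of 33 were higher with Dox+4μ8c and 26 with Dox, beside 23.9% and 26.6% of all genes. None was called, and the shares over all probesets were not counted. A probeset shared by Rpl36a and Rpl36al1 stood apart, at -0.11 with Dox+4μ8c and 0.25 with Dox. Its difference between Dox+4μ8c and Dox was -0.363 ± 0.050 (SE), -0.315 in experiment 1 and -0.41 in experiment 2, with a limma adjusted p of 0.0749 among probesets, and was larger than that of any of the 43 genes. It was singled out after its values were seen. Many ribosomal protein mRNAs have processed pseudogenes of near-identical sequence, so such probesets cannot be assigned to 1 gene. Of the paralogues, Rpl3l, the form of Rpl3 known from striated muscle, ran the other way, at -0.15 with Dox+4μ8c and -0.195 with Dox (limma adjusted p 0.291 and 0.119). Rps27l, a target of p53 in human cells, was at 0.090 and 0.097, Rpl7l1 at 0.033 and 0.014, Rpl26l1 at 0.039 and 0.099, and Rpl37-ps2 at -0.078 and -0.021, none of them called.

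Genes whose products build ribosomes had medians of similar size. Of 49 measured ribosome biogenesis factors, 33 (67.3%) were higher in both experiments with Dox+4μ8c and 30 (61.2%) with Dox, beside 23.9% and 26.6% of all genes, with medians of 0.072 and 0.081. Wdr12, of the PeBoW complex that processes large subunit RNA, and Gnl3, the GTPase nucleostemin, rose with Dox by 0.27 and 0.23 (limma adjusted p 0.0302 and 0.0451), at 0.22 (adjusted p 0.0987) and 0.18 (adjusted p 0.132) with Dox+4μ8c. They were the only 2 of the list called in either comparison, where 4.42% of all genes were called higher with Dox. The 10 measured RNA polymerase I genes had medians of 0.070 and 0.068 with 0 called, and Polr1b, its second largest subunit, was at 0.265 and 0.26 (adjusted p 0.0935 and 0.0624). Of 12 other mRNAs listed as TOP mRNAs, among them translation factors, 10 and 8 were higher in both experiments (83.3% and 66.7%). Their medians were 0.056 and 0.048 with 0 called, and their own start sites were not examined. Eif4b, an initiation factor that stimulates the helicase eIF4A, was at 0.22 in both (adjusted p 0.114 and 0.0782).

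The proteins of the mitochondrial ribosome are made from separate genes. The 73 measured had medians of 0.002 with Dox+4μ8c and 0.004 with Dox, and 17 (23.3%) and 22 (30.1%) of them were higher in both experiments, beside 23.9% and 26.6% of all genes. Mrps18b rose with Dox, by 0.37 (limma adjusted p 0.0321), and was the only one called, beside 4.42% of all genes called higher with Dox. Mrpl14 and Mrps16 were at -0.20 each with Dox+4μ8c (adjusted p 0.0923 and 0.119). The difference between the cytosolic and the mitochondrial list was not tested.

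**Figure D4:**
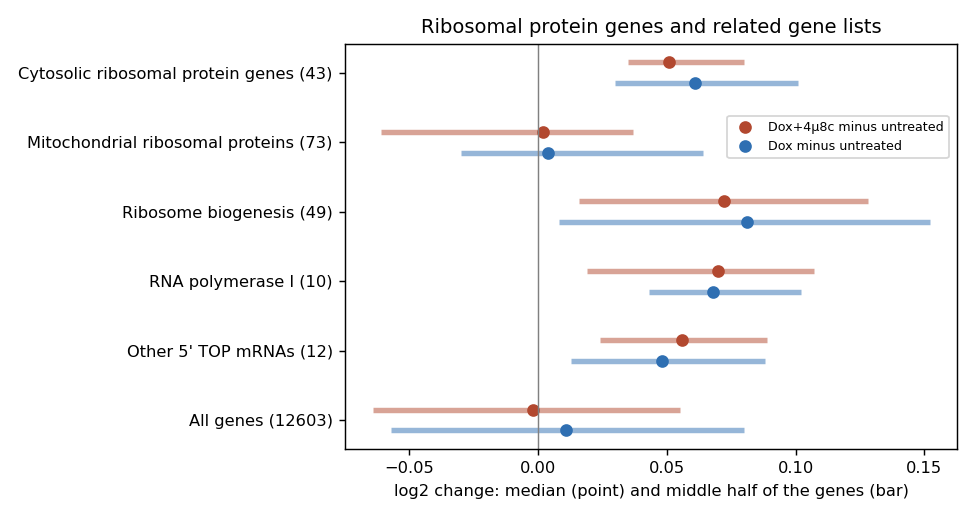
Median log2 change from untreated cells (point) and the range from the lower to the upper quartile (bar) for the cytosolic ribosomal protein genes, 4 related lists and all genes, with Dox+4μ8c above Dox in each pair and the number of genes in brackets. The cytosolic ribosomal protein genes, at 0.051 and 0.061, lie with the ribosome biogenesis, RNA polymerase I and other listed TOP genes. The mitochondrial ribosomal proteins lie with all genes near 0.

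The mean of the 43 genes was 0.014 (Dox+4μ8c), 0.003 (Dox) and -0.043 (untreated) in experiment 1, and 0.030, 0.055 and -0.035 in experiment 2. Among 3089 other genes with an SD of at least 0.1 over the arrays, those that followed this mean most closely over the 6 arrays were Timm8a1 (Pearson r 0.995), Tmem218 (0.994), Rpusd1 (0.994), Smco4 (0.993) and Crcp (0.991). The arrays are few and the values centred per probeset, so these r are a description of likeness.

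The control probesets differed between arrays as well. For the spiked poly-A transcripts, the 5′ signal less the 3′ signal differed from the untreated array by a median of -0.023 and -0.28 with Dox+4μ8c in experiments 1 and 2, and -0.093 and -0.40 with Dox. The 5S ribosomal RNA control probeset differed by 0.20 and -0.14 with Dox+4μ8c, and by 0.21 and -0.35 with Dox. For the cells' own actin, the 5′ signal less the 3′ signal differed by 0.21 and -0.078 with Dox+4μ8c, and by 0.14 and -0.22 with Dox. For GAPDH these differences were 0.012 and -0.001 with Dox+4μ8c, and 0.026 and 0.002 with Dox. The part of these control differences in the small changes of the ribosomal protein genes was not tested.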

How the data were processed

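The authors made the deposited log2 values from 3′ IVT arrays (200 ng of total RNA) with RMA, whose version is not given in the sources used here. The values are centred per probeset: in experiment 1, 100% of probesets had an array median of 0, and in experiment 2, 0.836% did. Of 25476 probesets, 17978 carried 1 symbol and were averaged per symbol to 12603 genes, with no filter. Contrasts were fitted in R 4.3.3 with limma 3.58.1 (lmFit, eBayes, two-sided, group plus experiment, Benjamini-Hochberg over all genes of a contrast, adjusted p under 0.05), with 2 residual and 4.25 prior degrees of freedom. Arrays with the same replicate number were treated as 1 experiment, after the study's statement that the experiments were independent. The deviations of same-numbered arrays from their group means correlated at r of 0.10, 0.032 and 0.031, which centring per probeset makes uninformative. Nothing in the sources says that a group's 2 arrays came from separate cultures beyond this, so p-values measure the spread between these arrays. With more prior than residual degrees of freedom, each gene's SE leans on the spread over all genes, tied ones included.

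Promoter windows were taken from RefSeq, assembly GRCr8. Tables used pandas 2.3.3 and numpy 2.4.6 under Python 3.11.15, and plots used matplotlib 3.10.9. The procedure was tested on simulated data that held no ties and no centring, so that test does not bear on those features of the values. Named genes were the 5 highest and 5 lowest members of each contrast, members fixed for their roles, the paralogues, up to 4 genes per related list with the smallest p, and the 5 genes most like the members' mean. Rps15 lies outside this rule and is shown for its start site. The members and lists were chosen with earlier results of these data known. The marker lists of the line and of stromal, immune and acinar cells could give changes only. Of 8 β-cell markers, 2 were called lower with Dox, beside 2.01% of all genes. With Dox+4μ8c 0 of them were called, beside 1.17% of all genes called higher and 1.13% lower. None of the 3 measured genes of the other lists was called. Alternatives left out the experiment term, each array or probesets of shared design, changed the scaling or the averaging, or left out genes tied in experiment 1.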

Additional observations from a re-analysis of the deposited data

How the results depend on the processing

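No alternative turned the sign of the members' median with Dox (0.042 to 0.064, and 0.033 to 0.085 leaving out each array in turn) or with Dox+4μ8c (0.050 to 0.060, and 0.032 to 0.069). The median between Dox+4μ8c and Dox was -0.007, between -0.022 and 0.014 leaving out each array and 0.018 after quantile normalization within each experiment, so its sign is not settled. Without probesets of shared design (suffixes _s_at, _x_at and _a_at), 1 member was called higher with Dox, Rps24 at 0.325 (limma adjusted p 0.0150). Leaving out each array in turn gave 0 to 1 members called higher with Dox (Rps13), 0 to 1 called higher with Dox+4μ8c (Rpl7) and 0 to 1 called lower between Dox+4μ8c and Dox (Rps13). The shares of all genes called under these alternatives were not counted. Without the Dox array of experiment 2 the difference between Dox+4μ8c and Dox turned to 0.020 for Rpl28 and 0.014 for Rps13. Without that of experiment 1 it was -0.18 and -0.305. Without the replicate block (the experiment term), 0 members were called in any comparison, and the medians were the same (0.051, 0.061 and -0.007). Leaving out the genes tied on all 3 arrays of experiment 1, chosen after seeing the data, changed no call of a member. Of 1155 alternative values for single named genes, 5 became calls and 59 turned sign, 57 of them for a change smaller than its SE and the other 2 being those of Rpl28 and Rps13 above. The 2 arrays a group limit the precision, and centring hides signal over background.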
